A study of Mus musculus with 3 samples.

Results

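Rab GTPases are small membrane-bound switches that mark the compartments of the cell. The family was taken as every gene whose deposited symbol is Rab followed by a number and at most a letter and 1 digit. This gave 54 genes of the 15058 in the joined tables, among them Rab14, a reported target of the erythroid microRNA miR-451, and Rab7l1, an older symbol for Rab29. RNA was sequenced from CD71+ erythroblasts, nucleated red-cell precursors that were sorted from the circulating blood of E10.5 mouse embryos. Each of the 3 groups had 1 library, made from cells pooled across embryos (5 per the design text). The control library came from Ter119-high cells with the genotype Drosha fl/fl or Drosha fl/+ and wild-type Drosha abundance. The Drosha-null library came from Ter119-high cells of Drosha fl/fl;cdh5-cre+ embryos, a conditional knockout (cKO) in which floxed Drosha is deleted by a Cre driven from the endothelial gene Cdh5. The Ter119-low library came from Ter119-low cells of the same cKO genotype, and its label gives Drosha as abundant as in the wild type. Ter119 is a red-cell surface antigen that increases during maturation, so this library differs from the control in both gate and genotype, whose parts in a difference cannot be told apart.

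A Rab protein is anchored in membranes by geranylgeranyl lipids, is switched on by exchange factors that load GTP, binds effectors such as tethers and motors while on, and is switched off by GTPase-activating proteins of the TBC family. Different members mark the route from the endoplasmic reticulum (ER) to the Golgi, early, recycling and late endosomes, and secretory granules. Erythroblasts rely on endosome recycling to bring transferrin-bound iron into the cell, and they clear their organelles as they mature. Drosha makes the first cut in the processing of most microRNAs, and microRNAs repress messages mainly through matches between their seed (bases 2 to 8) and the 3' UTR.

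The mature sequences of 4 erythroid or widely expressed microRNAs are given because their seeds were searched for in the Rab 3' UTRs. They are from RefSeq (GRCm38.p6), are written 5′ to 3′, and have the seed in capitals. MicroRNA levels were not analysed here.
miR-451a: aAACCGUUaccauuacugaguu
miR-17-5p: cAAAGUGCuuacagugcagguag
miR-16-5p: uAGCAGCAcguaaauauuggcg
miR-144-3p: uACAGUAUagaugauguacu

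The 3' UTR of Rab14 (Rab14-201 in GENCODE M21 on GRCm38, minus strand) has 2065 bases and does not hold the letters AACGGTT, the complement of the miR-451a seed. It holds ACGGTTT, which pairs with bases 1 to 7 of miR-451a, at chr2:35181914-35181920, 350 bases after the stop codon. This second form was looked for after the first had been seen to be missing. Rab14 also holds TGCTGCT, the miR-16-5p seed match, at chr2:35181967-35181973, and GTGCAAT, the miR-92a-3p seed match, at chr2:35180350-35180356. Stretches of 3' UTR around matches in some of the Rab genes called higher in the Drosha-null library are shown for comparison, in the direction of the message, with the matched bases in capitals.
Rab14, miR-451a bases 1 to 7: gctttgtctcgctgtACGGTTTa
Rab14, miR-16-5p: atttaaactgagcacTGCTGCTg
Rab5b, miR-17-5p: gacagctccgtcatgGCACTTTt
Rab12, miR-17-5p: tgacaatttcctttcGCACTTTg
Rab27a, miR-144-3p: cagatttcaaaatccATACTGTa
These matches lie on GRCm38 at chr10:128679380-128679386 (minus strand) for Rab5b, chr17:66495598-66495604 (minus) for Rab12 and chr9:73095896-73095902 (plus) for Rab27a.

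Library depth was close, with total counts between 9325822 and 9497431. Drosha had 324 control, 122 Drosha-null and 244 Ter119-low counts, a Drosha-null over control log2 ratio of −1.81. Its Ter119-low over control ratio was −0.49 (−0.74 to −0.25), below the control although the label gives wild-type abundance. All 10 erythroblast markers had counts in every library, and their summed level in scaled CPM, counts relative to library size, was 278190 for the control, 141154 for Drosha-null and 241380 for Ter119-low. Most of this sum is globin, with Hba-x at 128958, Hbb-y at 101826 and Hbb-bh1 at 39159 CPM in the control. Gene by gene, the Drosha-null over control log2 ratios of the 10 ran from −1.70 (Hbb-bh1) to −0.20 (Gata1), with a median of −0.84. The 6 endothelial markers, each detected in every library, summed to 6.43, 15.6 and 4.71 CPM in control, Drosha-null and Ter119-low, and the 6 cardiac muscle markers to 8.93, 26.3 and 6.40 CPM. Of the cardiac markers Myh7 was at 0 in the control, Myh6 in both cKO libraries and Tnnt2 in the Ter119-low library. Macrophage markers summed to 5.36, 4.85 and 2.69 CPM, and megakaryocyte markers to 11.7, 12.4 and 13.4 CPM, with Pf4 at 0 in the Drosha-null library, Gp1bb in the control and Ter119-low libraries and Ppbp in both cKO libraries. The macrophage markers Emr1, Cx3cr1 and Mrc1 were at 0 in the Ter119-low library. The part of these marker differences in the Rab values was not tested. In bulk RNA, a change in the share of a cell type and a change in RNA per cell cannot be told apart.

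The libraries gave counts for 47 (control), 52 (Drosha-null) and 47 (Ter119-low) of the 54 Rab genes. Levels between genes were compared per length, as TMM-scaled CPM per kilobase. In the control, Rab7, which takes cargo from late endosomes to lysosomes, stood first at 166 CPM per kilobase with the deposited gene length of 624 bases. With the longer GENCODE length of 2159 bases it had 47.9 and ranked below Rab1 and Rab10. Rab1, the main Rab of ER-to-Golgi transport, followed at 61.4, Rab10, which delivers vesicles to the cell surface, at 50.1, and Rab5c, of early endosomes, at 41.7 CPM per kilobase. Rab1b had 24.5, Rab8a 23.3, Rab6a 20.4, Rab11b 20.1 and Rab14 15.2 CPM per kilobase. For 6 of the 54 members (Rab7, Rab8a, Rab18, Rab21, Rab22a and Rab30) the GENCODE length is over 1.5 times the deposited one, and with it Rab8a had 10.3 and ranked below Rab14. The highest control levels thus lay in members of the ER-Golgi, early endosome, recycling and lysosome routes, and no Rab of regulated secretion exceeded the 0.96 of Rab3a.

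**Figure D1:**
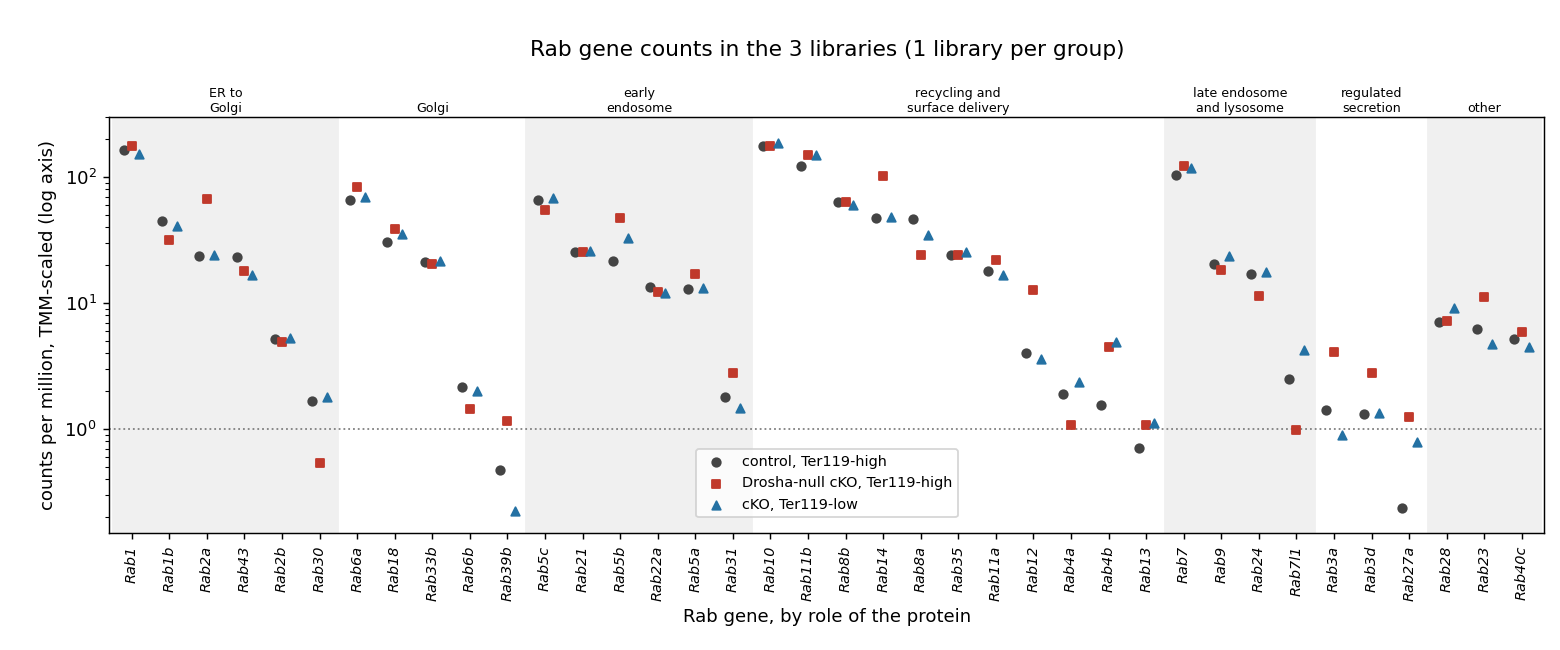
TMM-scaled CPM (log axis) of the 38 Rab genes that reached 1 CPM in the Drosha-null or control library, grouped by the role of the protein. Circles are the control, squares the Drosha-null and triangles the Ter119-low library, 1 library each, and the dotted line is at 1 CPM. The Drosha-null square of Rab14, at 102 CPM, stands above the control and Ter119-low points at 47.0 and 48.0 CPM.

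The first comparison sets Drosha-null against control within the Ter119-high gate. These libraries differ in genotype and in the embryos pooled, whose parts in a difference cannot be told apart. With 1 library per group there is no replicate check and no test. A gene at 1 CPM or more in either library was called when it differed by a ratio of at least 2 in either direction and the exact 95% counting interval, which covers counting error only, excluded 1. Of the 54 Rab genes, 38 were measured by this filter. 8 were called higher, which is 21.1% against 12.4% of all 10769 genes measured. 2 were called lower, which is 5.26% against 7.81% of all genes, and 28 were neither. The genes called higher were Rab2a, Rab3a, Rab3d, Rab4b, Rab5b, Rab12, Rab14 and Rab27a, and those called lower were Rab30 and Rab7l1. The median log2 ratio of the 38 was 0.14, beside −0.02 for all genes, with 23 members above and 15 below 0. By total-count scaling, which moved the median of all genes to 0.43, the calls were 13 higher and 0 lower, against 23.0% and 2.70% of all genes, and the Rab median was 0.64. Of the 38 measured, 5 reached 1 CPM in 1 of the libraries alone (Rab13, Rab27a, Rab30, Rab39b and Rab7l1), and the median of the other 33 was 0.11. Rab27a, called higher, passed the filter through the Drosha-null library alone. Both genes called lower, Rab30 and Rab7l1, passed it through the control alone.

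**Figure D2:**
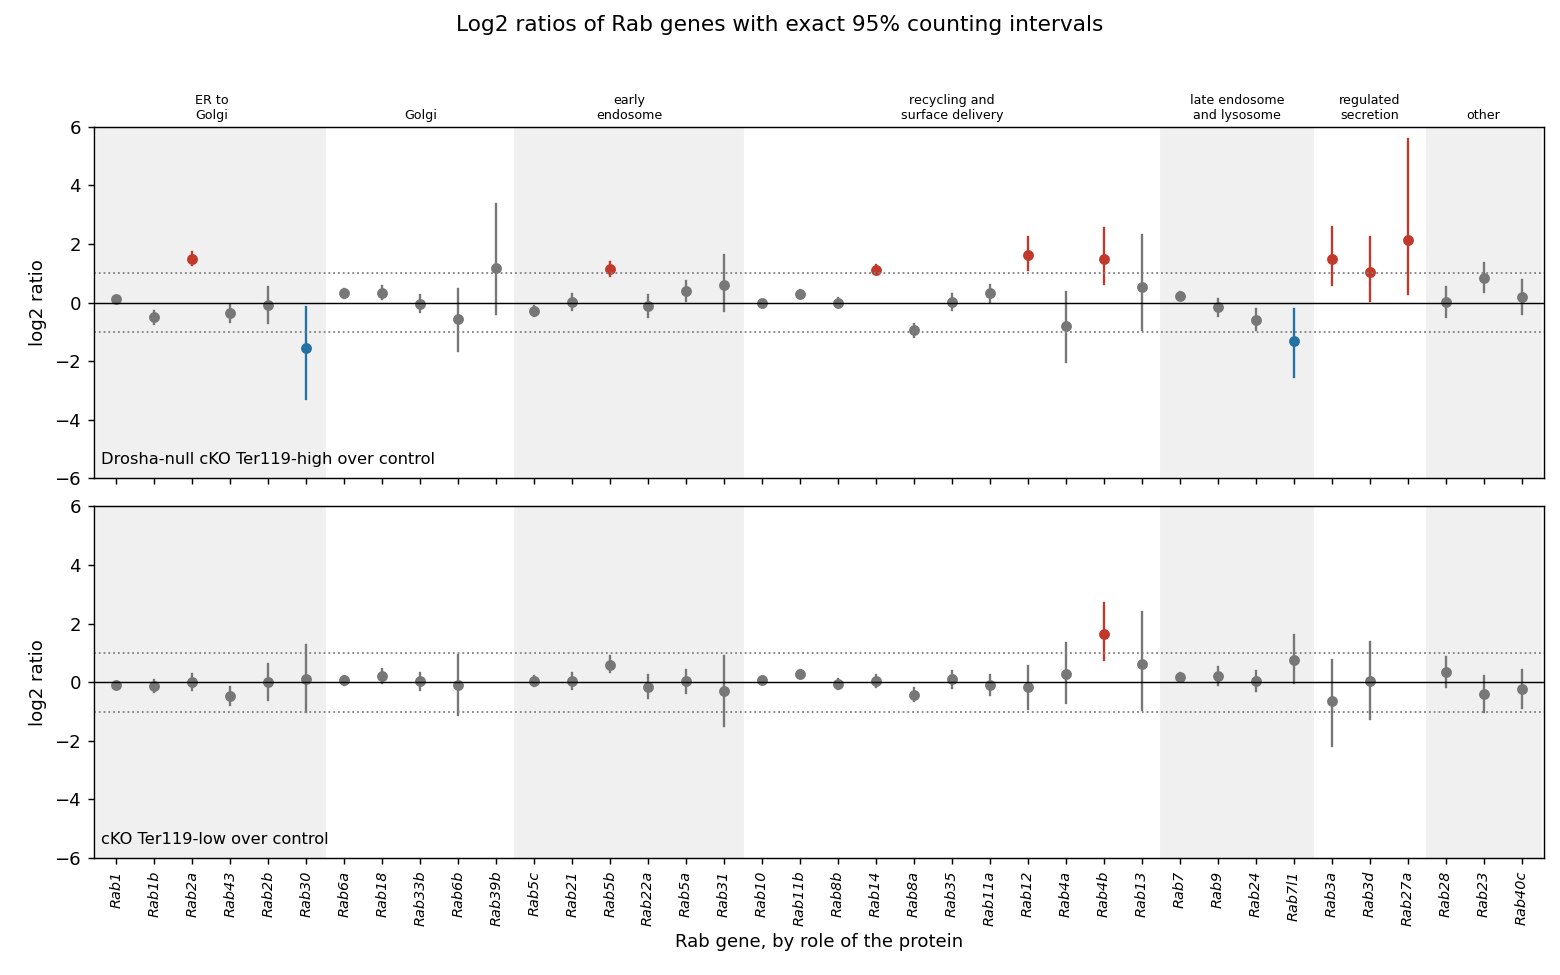
Log2 ratios of each measured Rab gene with the exact 95% counting interval as a bar, for Drosha-null over control (upper panel) and Ter119-low over control (lower panel), by role of the protein. Red is called higher, blue called lower, and dotted lines mark a ratio of 2 either way. The Drosha-null ratios run from −1.57 (Rab30) to 2.13 (Rab27a), and the Ter119-low ratios from −0.64 (Rab3a) to 1.64 (Rab4b).

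Rab14, which acts between the Golgi, early endosomes and the plasma membrane (chr2:35180205-35201120, minus strand, GRCm38), had 395 control counts, 1142 Drosha-null counts and 428 Ter119-low counts. Scaled, these were 47.0, 102 and 48.0 CPM. The Drosha-null library was high and the other libraries were close to each other. The log2 ratio was 1.12 (interval 0.96 to 1.29) for Drosha-null over control, 0.03 (−0.17 to 0.23) for Ter119-low over control and 1.09 (0.93 to 1.26) for Drosha-null over Ter119-low.

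On the ER-to-Golgi route all 6 members were measured, with 1 called higher and 1 lower and a median log2 ratio of −0.23. Over all genes 12.4% were called higher and 7.81% lower, to be read beside the counts of each role group. These groups are small and were not tested against those shares. Rab2a, which works in ER-to-Golgi transport and in fusion with lysosomes (chr4:8535644-8607778, plus strand), had 200 control, 749 Drosha-null and 213 Ter119-low counts, or 23.8, 67.2 and 23.9 CPM. Its Drosha-null over control log2 ratio was 1.49 (1.27 to 1.73), and the Ter119-low library stood at the control level, at 0.01 (−0.28 to 0.29). Its close relative Rab2b had 44, 55 and 47 counts and a Drosha-null ratio of −0.09, with exon bases shared with Gm43766 and Tox4 on the opposite strand. Rab30, a Golgi Rab (chr7:92741603-92844535, plus strand), had 14, 6 and 16 counts, and its ratio of −1.57 (−3.30 to −0.16) rests on those few reads. The abundant Rab1 had 1370, 1964 and 1368 counts with a ratio of 0.11, and Rab1b had 377, 351 and 368 counts with a ratio of −0.51, so neither was called. Rab43 (194, 200 and 149 counts, −0.36) shares exon bases on the same strand with the predicted gene Gm45140, and its reads may be split with it.

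Of the 10 Golgi and retrograde Rabs 5 were measured and 0 were called in either direction against the control, with a median of 0.32. Rab6a, which returns membrane from endosomes to the Golgi and from the Golgi to the ER, had 557, 925 and 616 counts in control, Drosha-null and Ter119-low, a Drosha-null ratio of 0.32. Rab18, of lipid droplets and the ER, had 256, 429 and 314 counts and a ratio of 0.34. Rab6a shares exon bases with the opposite-strand gene Mrpl48. Rab39b, a Golgi Rab known from neurons, had 4, 13 and 2 counts, and its log2 ratio of 1.18 to the control had an interval of −0.40 to 3.37. Rab33b, with 177, 229 and 191 counts, and Rab6b, with 18, 16 and 18, had ratios of −0.04 and −0.57. Their intervals (−0.33 to 0.26 and −1.65 to 0.48) spanned 0, so neither is shown to lie below the control.

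All 6 early endosome Rabs were measured, and 1 was called higher, beside 12.4% of all genes. Rab5b, which drives fusion of early endosomes (chr10:128677175-128696264, minus strand), had 181 control, 531 Drosha-null and 292 Ter119-low counts, or 21.5, 47.6 and 32.8 CPM. The Ter119-low library thus lay between the other libraries, at a log2 ratio of 0.60 (0.33 to 0.88), under the call size, while the Drosha-null ratio was 1.14 (0.90 to 1.40). The other Rab5 isoforms were not called. Rab5c had 556, 607 and 612 counts and a Drosha-null ratio of −0.28, and Rab5a had 109, 190 and 118 counts and a ratio of 0.39, with exon bases shared with Pp2d1 on the opposite strand. Rab21, which sorts integrins, had 212, 284 and 231 counts and a ratio of 0.01.

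Recycling and surface delivery is the largest group, with 13 members and 11 measured. Beside 12.4% and 7.81% of all genes, 3 were called higher and 0 lower (median 0.31). Besides Rab14 these were Rab12 and Rab4b. Rab12, which sends transferrin receptor from recycling endosomes to lysosomes (chr17:66494512-66519729, minus strand), had 34, 141 and 32 counts, or 4.05, 12.7 and 3.59 CPM in control, Drosha-null and Ter119-low. The Drosha-null library stood apart, with a log2 ratio of 1.63 (1.10 to 2.23) to the control and 1.80 (1.25 to 2.42) to the Ter119-low library. Rab4b, of fast recycling from early endosomes (chr7:27168424-27178896, minus strand), had 13, 50 and 44 counts, or 1.55, 4.49 and 4.94 CPM. Here both cKO libraries were above the control that they share, with log2 ratios of 1.496 (0.63 to 2.54) and 1.64 (0.76 to 2.69), and both rest on the same 13 control counts. Rab4b shares exon bases on the same strand with the readthrough gene Gm21983, and counts may be split between them.

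The other recycling members were not called against the control. Rab4a had 16, 12 and 21 counts and a Drosha-null over control ratio of −0.81. Rab10 had 1486, 1968 and 1652 counts, or 177, 177 and 185 CPM, which was level across the libraries. Rab11b, the recycling endosome Rab with the most counts, had 1026, 1682 and 1330 counts and a ratio of 0.31, and its deposited counts are fractional, so some reads were shared with other genes. Rab11a had 150, 247 and 149 counts and likewise a ratio of 0.31. Rab8a, which takes vesicles to the plasma membrane and to cilia, had 394, 270 and 312 counts and a log2 ratio of −0.95 (−1.18 to −0.73), just short of the call size, while its relative Rab8b had 530, 703 and 538 counts and equal scaled levels of 63.1 CPM in control and Drosha-null. Under total-count scaling Rab8a stayed below the control, whereas Rab8b and Rab10 moved above it.

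Of the 5 late endosome, lysosome and autophagy Rabs 4 were measured, 0 were called higher and 1 lower (median −0.38). Over all genes the shares were 12.4% and 7.81%. Rab7 had 869, 1359 and 1053 counts and log2 ratios to the control of 0.24 (0.11 to 0.36) for Drosha-null and 0.19 (0.06 to 0.32) for Ter119-low. Rab24, linked to autophagy, had 143, 126 and 157 counts and a Drosha-null ratio of −0.59 (−0.95 to −0.23). It shares exon bases with Prelid1 on the opposite strand. Rab9, which retrieves receptors from late endosomes to the Golgi, had 173, 205 and 212 counts and a ratio of −0.16. Rab7l1, which acts at the Golgi and on stressed lysosomes (chr1:131867224-131872887, plus strand), had 21, 11 and 38 counts, or 2.50, 0.99 and 4.27 CPM. It was lowest in the Drosha-null library, at −1.31 (−2.54 to −0.22) to the control and −2.07 (−3.23 to −1.11) to the Ter119-low library.

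Of the 10 Rabs of regulated secretion and lysosome-related organelles 3 were measured, and all 3 were called higher in the Drosha-null library, at low counts. Over all genes 12.4% were called higher. Rab3a, a Rab of secretory vesicles best known from synapses (chr8:70754679-70758677, plus strand), had 12, 46 and 8 counts, or 1.43, 4.13 and 0.90 CPM, a log2 ratio of 1.49 (0.59 to 2.58). Rab3d, of exocrine granules (chr9:21907491-21918192, minus strand), had 11, 31 and 12 counts and a ratio of 1.05 (0.06 to 2.23). Rab27a, which docks granules and melanosomes (chr9:73044854-73097629, plus strand), had 2, 14 and 7 counts, a ratio of 4.37-fold with an interval of 1.21 to 47.8-fold. With 5 counts added in place of 0.5 its log2 ratio was 1.03 instead of 2.13, and Rab3d was then at 0.76 and no longer called. These members passed the filter through the Drosha-null library alone (Rab27a) or with at most 12 control counts, so their share is a description of few reads. The remaining 7 of the group had at most 8 counts in any library. Rab27a shares exon bases on the same strand with the pseudogene Gm27186. Rab3a shares exon bases with Mpv17l2 on the opposite strand, and whether the counting used strand is not given in the sources used here.

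Outside these routes, Rab23, known as a regulator of Hedgehog signalling, had 52, 124 and 42 counts and a Drosha-null over control ratio of 0.84 (0.37 to 1.34), under the call size. Rab28, a Rab of cilia and photoreceptors, had 60, 80 and 81 counts and Rab40c 44, 66 and 40, with ratios of 0.00 and 0.17. The 16 Rab genes that did not reach 1 CPM had 0 to 11 counts per library. Of these Rab19 had 0, 11 and 0 counts, which put the Drosha-null library 2.76-fold over the floor of 3 control counts. Rab9b had 0, 9 and 0, which is 2.26-fold over the same floor. The lower limits of their counting intervals to the control were 1.89-fold and 1.49-fold. Rab26 had 4, 0 and 6 counts.

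**Figure D3:**
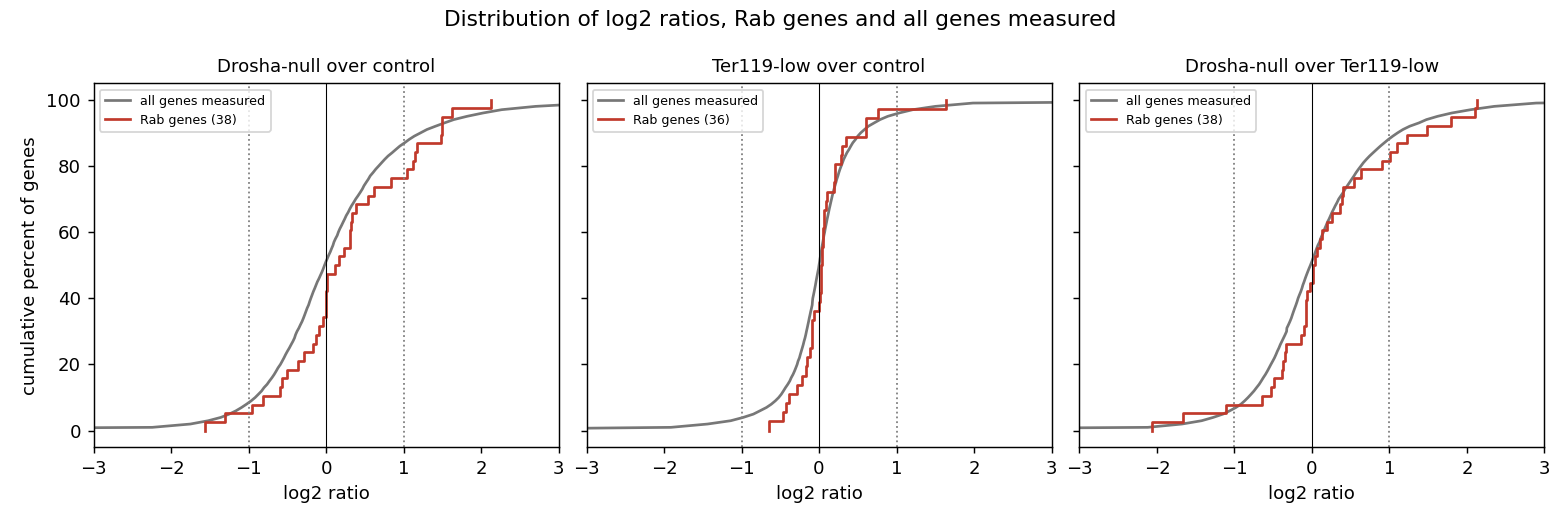
Cumulative percent of genes (vertical axis) by log2 ratio, shown from −3 to 3, for all measured genes (grey) and the measured Rab genes (red) in each of the 3 comparisons, with dotted lines at a ratio of 2 either way. In Drosha-null over control the Rab curve crosses its median at 0.14 and that of all genes at −0.02, and both curves are steeper in Ter119-low over control.

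The Ter119-low library, whose cells differ from the control in gate and genotype, was set against the control next. Of 36 measured Rab genes 1, Rab4b, was called higher, which is 2.78% against 2.9% of all 10591 genes. 0 were called lower, against 2.76% of all genes, with no test at 1 library per group. The median log2 ratio was 0.03, beside 0.00 for all genes, and 2 of the 36 reached 1 CPM in 1 library alone. Rab2a, Rab12, Rab14 and Rab3d, all called higher in the Drosha-null library, had Ter119-low over control ratios of 0.01, −0.17, 0.03 and 0.04. Of the other genes called higher there, Rab5b had 0.60 (0.33 to 0.88), Rab3a −0.64 and Rab4b 1.64, while Rab27a, with 2 and 7 counts, was not measured. Rab8a, at −0.42 (−0.64 to −0.20), was under the control in this library too, by less than the call size.

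The last comparison sets the 2 cKO libraries side by side, and again gate and Drosha status cannot be told apart. Of 38 measured Rab genes 7 were called higher in the Drosha-null library, which is 18.4% against 10.8% of all 10795 genes. 3 were lower, which is 7.89% against 5.94%. The higher genes were Rab2a, Rab3a, Rab3d, Rab12, Rab14, Rab23 and Rab39b, and the lower ones Rab4a, Rab30 and Rab7l1. Of the 38 measured, 5 reached 1 CPM in 1 of these libraries alone (Rab3a, Rab27a, Rab30, Rab39b and Rab7l1). The median log2 ratio of the other 33 was 0.02. Among the genes called higher, Rab3a and Rab39b passed the filter through the Drosha-null library alone. Of the lower genes, Rab30 and Rab7l1 passed it through the Ter119-low library alone. Rab2a had a log2 ratio of 1.49 (1.27 to 1.72), Rab3a 2.13 (1.10 to 3.50) and Rab23 1.23 (0.72 to 1.78). Rab4a (12 Drosha-null and 21 Ter119-low counts) had −1.11 (−2.29 to −0.04), a call lost with total-count scaling (−0.77), with the authors' FPKM (−0.79), with 5 counts added (−0.94) and with a filter at 10 CPM. Rab39b rests on 13 against 2 counts, a ratio with a log2 interval of 0.23 to 5.57. Rab5b and Rab4b were not called here, at 0.54 and −0.14. The comparisons share libraries, so these values are only given side by side.

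Gene length moved with the ratio in the Drosha-null library. In the shortest of 10 length classes of all genes the median log2 ratio was −0.59, and in the longest it was 0.29. The measured Rab genes had a median deposited length of 2295 bases, under the 2903 bases of all genes, while their annotated 3' UTRs had a median of 1993 bases against 1259. The UTRs are from GENCODE, so these medians rest on annotations that differ. In Rab7 and Rab30, for example, the UTR alone (1329 and 8596 bases) exceeds the deposited length (624 and 2007 bases). Rab4b and Rab3a, at 1170 and 1488 bases, had ratios of 1.496 and 1.488 and lie in a class whose median was −0.28. A gene called higher has a ratio of at least 2, so it stands above every class median by the rule of the call. Rab14 and Rab5b, at 3100 and 3180 bases, lie in a class with a median of −0.01. Rab7l1, at 1212 bases, is in the class at −0.28. The part of length in the Rab ratios was not tested.

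**Figure D4:**
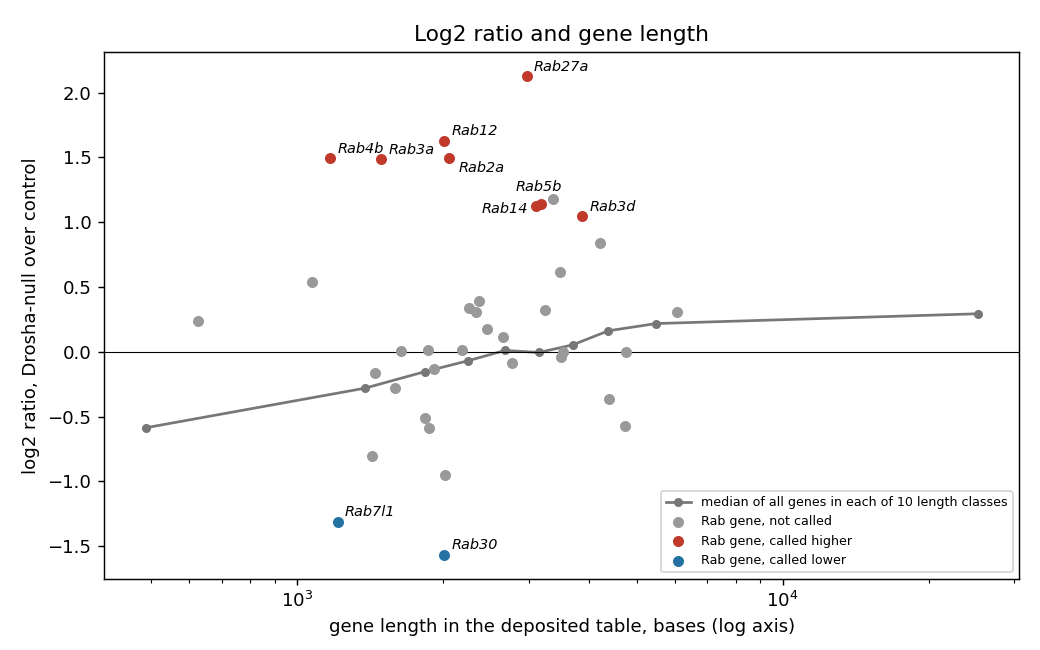
Drosha-null over control log2 ratio of the 38 measured Rab genes against deposited gene length in bases (log axis), with the median of all genes in each of 10 length classes as a line. The line runs from −0.59 to 0.29, and the 8 Rab genes called higher have lengths between 1170 and 3868 bases. They lie above the line because of the ratio required for a call.

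Seed matches were counted in the annotated 3' UTRs of the 38 measured Rab genes and of 10368 measured genes with a 3' UTR. Longer UTRs hold more matches to any 7 letters, and the Rab UTRs are the longer ones. The miR-451a match AACGGTT was in 0 of 38 Rab genes and 2.21% of all genes, and the bases 1 to 7 form ACGGTTT was in 1 Rab gene, Rab14, and 3.20% of all genes. The miR-17-5p match GCACTTT was in 10 of 38 Rab genes (26.3%) and 16.3% of all. Of those 10, 2 were called higher, against 6 of the 28 without the match, and the medians were −0.00 and 0.20, while over all genes they were 0.20 with and −0.04 without the match. The miR-16-5p match TGCTGCT was in 13 Rab genes (34.2%) and 27.2% of all, with 4 of 13 called higher and 4 of 25 without it, and Rab medians of 0.17 with and 0.11 without. The miR-144-3p match ATACTGT was in 6 Rab genes (15.8%) and 15.3% of all, with Rab medians of 0.32 with and 0.06 without. The miR-92a-3p match GTGCAAT was in 5 Rab genes (13.2%) and 8.31% of all, with Rab medians of 0.31 and 0.11. The let-7a-5p match CTACCTC was in 3 Rab genes (7.89%) and 11.6% of all, with Rab medians of 0.17 and 0.11. Called higher with and without the match were 1 of 6 and 7 of 32 for miR-144-3p. These were 1 of 5 and 7 of 33 for miR-92a-3p, and 0 of 3 and 8 of 35 for let-7a-5p. Over all genes the medians with and without were 0.10 and −0.04 for miR-16-5p and 0.17 and −0.03 for miR-144-3p. They were 0.30 and −0.03 for miR-92a-3p, and 0.12 and −0.02 for let-7a-5p. Rab2a, with a ratio of 1.49, held none of the letters searched. Rab30, called lower at −1.57 on 14 control and 6 Drosha-null counts, held the miR-17-5p, miR-16-5p, miR-144-3p and miR-92a-3p matches. Its annotated 3' UTR has 8596 bases and its deposited length is 2007 bases. Some of these matches lie further from the stop codon than that deposited length. A match is a description of the UTR and a missing match says only that those letters are not in the annotated window.

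The other genes of the Rab cycle were described from 5 lists. In the Drosha-null over control comparison, 1 of 8 measured genes of prenylation and GDP dissociation was called higher and 0 lower (median 0.13), where 12.4% of all genes were called higher and 7.81% lower. Chml, a Rab escort protein that presents Rabs for prenylation, had 51, 173 and 68 counts and a log2 ratio of 1.34 (0.90 to 1.83). Rabggtb, the catalytic subunit of the Rab prenylating enzyme, had 668, 669 and 747 counts and a ratio of −0.41, and its partner Rabggta had 48, 41 and 87 counts and −0.63. Among exchange factors 6 of 36 were higher and 1 lower (median 0.07), to be read beside the same shares of all genes. Trappc1, a subunit of the TRAPP complexes and the most abundant per length, had 295, 235 and 335 counts and a ratio of −0.74. Dennd2d had 0, 21 and 9 counts, 5.28-fold over the floor of 3 control counts, with a lower interval limit of 3.93-fold. Rin2, a Rab5 exchange factor, had 2, 20 and 3 counts, 6.18-fold with an interval of 1.83 to 66.5-fold. The lower one, Rab3il1, an exchange factor for Rab8 and Rab3 named after its value was seen, had 463, 298 and 510 counts and a ratio of −1.04 (−1.26 to −0.83).

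Of 32 measured TBC GTPase-activating proteins 6 were called higher and 0 lower (median 0.32), beside 12.4% and 7.81% of all genes. Tbc1d8b had 32, 282 and 49 counts, a log2 ratio of 2.71 (2.20 to 3.31), and Tbc1d19 had 25, 113 and 41 counts and 1.75. Tbc1d15, which acts on Rab7 and is the most abundant of the list per length, had 532, 626 and 552 counts and −0.17. Evi5, a TBC protein that binds Rab11, named after its value was seen, had 595, 1842 and 767 counts and a ratio of 1.22 (1.09 to 1.36). Of 39 effectors 5 were higher and 2 lower (median 0.37). Uso1, a Rab1 tether of the Golgi, had the highest level per length, with 576, 645 and 711 counts and a ratio of −0.24. Rab11fip5, a Rab11 effector, had 1, 17 and 3 counts, 8.79-fold with an interval of 2.01 to 536-fold. Sytl4, a Rab27 effector, had 0, 16 and 1 counts, 4.02-fold over the floor, with a lower interval limit of 2.91-fold. With Dennd2d and Sytl4 at these floor-based values the medians of their lists stay as given. The lower effectors, Unc13d, a Rab27a partner in granule release, with 222, 113 and 233 counts and −1.38 (−1.72 to −1.05), and Rilpl1, with 14, 6 and 3 counts and −1.57, were named after their values were seen. Of 16 genes of transferrin receptor traffic 1 was higher and 1 lower (median 0.07). These were Snx4, a sorting nexin of recycling (128, 356 and 130 counts, 1.06), and Ehd3, which acts at recycling endosomes (209, 129 and 203 counts, −1.10). The receptor gene Tfrc had 9994, 6862 and 10159 counts and a ratio of −0.95. In the Ter119-low over control comparison the 5 lists held 0, 1, 0, 1 and 0 higher and 0, 0, 0, 1 and 0 lower genes in the same order. The genes measured there were 8, 35, 32, 38 and 16, and 2.9% of all genes were called higher and 2.76% lower.

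**Figure D5:**
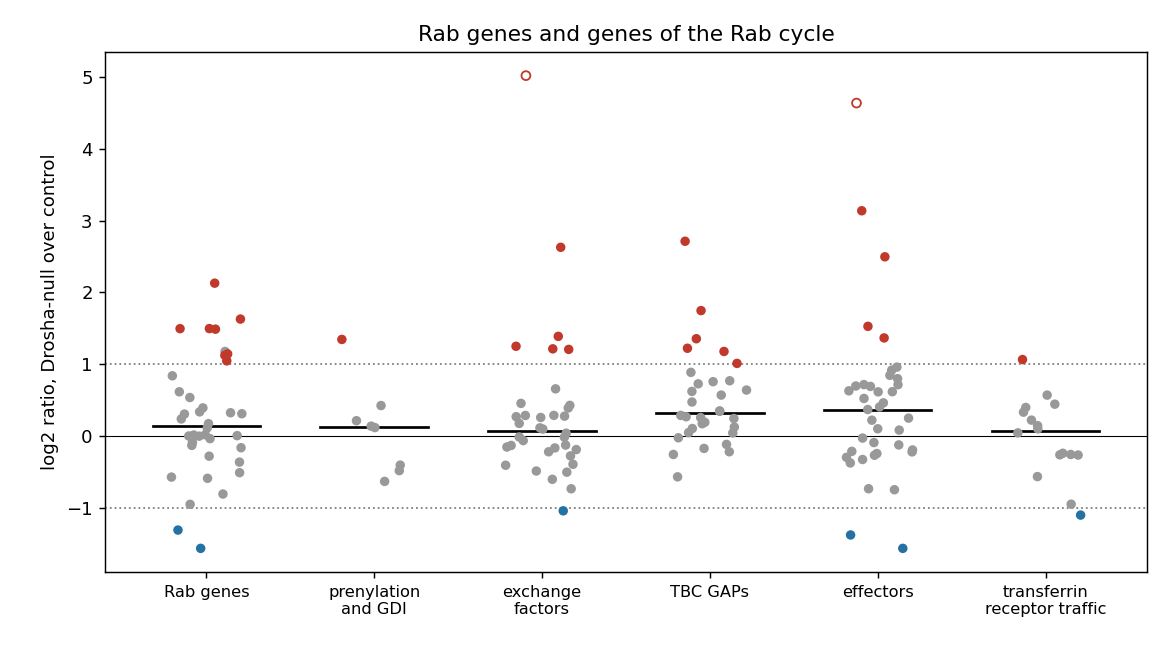
Drosha-null over control log2 ratios of the 38 measured Rab genes and of the measured genes of the 5 Rab-cycle lists, 1 point per gene, with genes called higher in red, those called lower in blue, the median as a bar and dotted lines at a ratio of 2 either way. Open circles are genes with 0 control counts (Dennd2d and Sytl4), whose plotted height depends on the 0.5 counts added, and the medians of the 5 lists lie between 0.07 and 0.37.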

How the data were processed

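Each of the 2 deposited tables pairs 1 cKO library with the control library. Per the file headers, their columns hold the authors' expected counts per gene (estimated reads, fractional for some genes) and FPKM values, which the authors made by dividing counts by gene length and library size. For the aligner, counting program, annotation and genome build, the sources used here give no name. There were 14640 and 14300 genes in the tables, which were joined by gene ID (13882 shared, control counts differing in 0), and a gene in 1 table alone (1176 genes, 0 with control counts) was taken as 0 in the other.

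Expected counts were rounded to whole numbers and scaled by TMM (edgeR 4.0.16, R 4.3.3; factors 0.885, 1.20 and 0.946). The log2 ratio had 0.5 counts added and an exact 95% Clopper-Pearson interval (SciPy 1.17.1, Python 3.11.15). Genes at 1 CPM in either library were called at a ratio of 2 with an interval excluding 1. The floor of 3 counts was 0.357, 0.269 and 0.337 CPM in control, Drosha-null and Ter119-low. With 1 library per group no test was made, and intervals cover counting error only. The procedure was tested on simulated data. FPKM values entered an alternative only. Alternatives changed the scaling, filter, added count and call size.

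The members and lists were chosen with earlier results of these data known. Named were Rab14, members called in any comparison, the 2 highest per length in each role, and from each Rab-cycle list the most abundant gene and the 2 with the largest ratios. Other Rab genes are named as relatives or to fill out a role, and 1 microRNA match was added after the data were seen. 3' UTRs and locations are from GENCODE M21 (GRCm38), and mature microRNAs from RefSeq (GRCm38.p6). Some match sequences are not reported here.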

Additional observations from a re-analysis of the deposited data

How the results depend on the processing

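Each group had 1 library, so no library could be left out. No paired analysis was possible because each group had 1 library and the labels give no replicate numbers. No value of the 3 comparisons changed direction past a call under the alternatives run. For Drosha-null over control, total-count scaling gave 13 higher and 0 lower, against 23.0% and 2.70% of all genes. The Rab median was then 0.64 and the Rab14 ratio 1.56, while the median of all genes moved from −0.02 to 0.43. The authors' FPKM were called on a ratio of 2 alone, with no counting interval. These calls therefore differ from the main ones in more than scaling. They gave 12 higher (23.8% of all genes were higher) and 1 lower (3.63% of all genes were). The median was 0.58 and the Rab14 ratio 1.56. A filter at 10 CPM left 4 higher (Rab2a, Rab5b, Rab12 and Rab14) and 0 lower, where fewer genes are tested and 7.66% of all genes were higher and 5.995% lower, and a ratio of 1.5 gave 4 lower, where 17.6% of all genes were lower. For Ter119-low over control, 10 CPM gave 0 higher, against 0.268% of all genes, and a ratio of 1.5 gave 2, against 5.13%. For Drosha-null over Ter119-low, total-count scaling gave 1 lower (Rab30 and Rab4a were lost), against 2.79% of all genes, and a Rab14 ratio of 1.43. FPKM also gave a Rab14 ratio of 1.43. The filter at 10 CPM gave 4 higher and 0 lower, against 6.16% and 3.87% of all genes. Under total-count scaling 8 members near 0 (Rab10, Rab22a, Rab2b, Rab33b, Rab43, Rab5c, Rab8b and Rab9) moved above the control in the Drosha-null library. Adding 5 counts in place of 0.5 lost the call of Rab3d in both comparisons that call it and that of Rab4a in Drosha-null over Ter119-low. Median-ratio scaling and TMM without ribosomal RNA and globin genes moved none of the counts, medians or Rab14 values beyond the limits used. Calls on fewer than about 15 counts, as for Rab27a, Rab30 and Rab7l1, rest on few reads, and depth limits them.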

Other observations

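Of 5 Rab-like genes outside the numbered family, picked by name and not from a list, Rabl2, Rabl3 and Rabl5 were called higher in the Drosha-null library than in the control, where 12.4% of all genes were, and Rabl6 and Ift27 were not called. Rabl3, a small GTPase related to the Rabs, had 47, 188 and 66 counts in control, Drosha-null and Ter119-low, a log2 ratio of 1.58 (1.12 to 2.09) to the control and 1.18 to the Ter119-low library. Rabl5, a component of intraflagellar transport, had 6, 26 and 10 counts and a ratio of 1.62 (0.39 to 3.28), and Rabl2 had 12, 35 and 19 counts and 1.10 (0.16 to 2.22). Against the Ter119-low library Rabl5, at 1.01 (−0.04 to 2.27), and Rabl2, at 0.54, were not called. Rabl6 had 412, 300 and 450 counts and a ratio of −0.86 (−1.08 to −0.65), under the call size. Ift27, another intraflagellar Rab-like protein, had 27, 21 and 26 counts and a ratio of −0.76. Ran, the nuclear transport GTPase of the same superfamily, had 6947, 6123 and 6797 counts and a ratio of −0.59.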
